A study of Mus musculus with 21 samples.

Results

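The comparison described here is that of OT1 CD8 T cells cultured for 5 days after bead activation with a high dose of IL-2v, 50 IU/mL, and the same cells cultured for 5 days after activation with no added cytokine. The 2 libraries were taken by their titles, and every cell in each deposited table was used, 5079 cells with IL-2v and 6112 without cytokine, or 11191 of the 106458 cells in the 21 libraries of the series. OT1 cells carry a transgenic T cell receptor that recognises a peptide of ovalbumin. The series cultured naive OT1 CD8 T cells, activated on day 0 with beads coated with anti-CD3 and anti-CD28, with IL-2, IL-2v or IL-15 at 5 or 50 IU/mL, or with no cytokine, and sampled RNA in single cells on days 0, 3, 5 and 10. Both libraries compared here received the beads, came from OT1 cells and were sampled on day 5, and the labels give their treatments as a mutant IL-2 at 50 IU/mL and as no exogenous cytokine. The title of the study speaks of proliferation and stemness under attenuated IL-2 signalling, and that is the question to which the 2 libraries belong. The extraction label speaks of CD44+CD45.1+CD8+ cells sorted out of tumours and the growth label of cultures, and the libraries were read as cultured cells. The number of animals and cultures behind each library is not given in the sources used here.

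IL-2 acts on T cells through a receptor of up to 3 chains, of which Il2rb and Il2rg carry the signal to the kinases JAK1 and JAK3 and the transcription factor STAT5, while Il2ra (CD25) raises the affinity for IL-2. IL-2v is a variant of IL-2 that was made so as not to engage the alpha chain and that acts through the beta and gamma chains. Activated CD8 T cells deprived of IL-2 stop dividing, shrink and regain receptors of resting cells, while IL-2 signals keep growth, glycolysis and the cytolytic programme going.

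Each condition had 1 library, so no test could be made, no p-value is given, and all intervals cover counting error alone. Levels are in CPM, counts scaled to a common library total, the unique molecular identifiers (UMIs, tags that mark single captured RNA molecules) of a gene being summed over the cells of a library. Differences are those of log2(CPM + 1), IL-2v minus no cytokine, a scale that understates differences of low genes. A sum over cells does not tell fewer expressing cells from less RNA per cell. The totals were 21520466 UMIs with IL-2v and 25673180 without cytokine, and the median cell held 3924 UMIs and 1655 genes with IL-2v against 3751 UMIs and 1407 genes without. Ribosomal protein genes took 27.7% and 35.5% of the UMIs, and mitochondrial genes 3.68% and 3.86%. The libraries shared 7 cell barcodes. As labelled, both held CD8 T cells: Cd3d had a UMI in 95.3% and 99.5% of cells and Cd8b1 in 75.2% and 91.1%. Of the other lineages, the defining genes Ms4a1, Lyz2, Csf1r, Cd14, Adgre1, Foxp3 and Ncr1 were at 0 in both libraries and Cd4 was seen in 0.28% and 0.26% of cells. Zbtb7b, a factor of CD4 T cells, had a UMI in 10.3% and 2.52% of cells, and the summed CD4 T and Treg list stood at 28.2 and 8.41 CPM. The summed myeloid list stood at 8.92 and 2.03 CPM and the summed NK list at 7.67 and 0.857 CPM. Of their genes, Fcer1g had a UMI in 1.63% and 0.262% of cells, Itgam in 0.61% and 0.0982%, and Klrb1c in 22 cells with IL-2v and in none without cytokine. The erythroid list stood at 0.836 CPM and 0, with Hba-a1 in 11 cells with IL-2v. The summed B cell list stood at 291 and 410 CPM, almost all of it Ighm at 277 and 393 CPM. Without the cells that held a Cd4 UMI or at least 2 markers of B, myeloid, NK or erythroid cells, 4850 and 5783 cells remained, and the counts past 2-fold were 1347 upward and 357 downward, beside 1350 and 353 in all cells. Cells with Zbtb7b as their one such marker were kept, and their part in the results was not tested.

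The library with IL-2v stood apart from the one without cytokine in many genes, with more genes higher than lower. Of 17516 gene symbols, 6389 reached 20 CPM in either library. Of these, 1350 (21.1%) were at least 2-fold higher with IL-2v and 353 (5.53%) at least 2-fold lower, 447 and 66 of them by at least 4-fold. The median over the 6389 genes was 0.30. The balance between higher and lower genes depended on scaling: with library sizes from trimmed means of M values (TMM) the median was −0.07, 832 genes were higher and 718 were lower. A gene within about this step of the 2-fold line can change sides with the scaling.

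**Figure D1:**
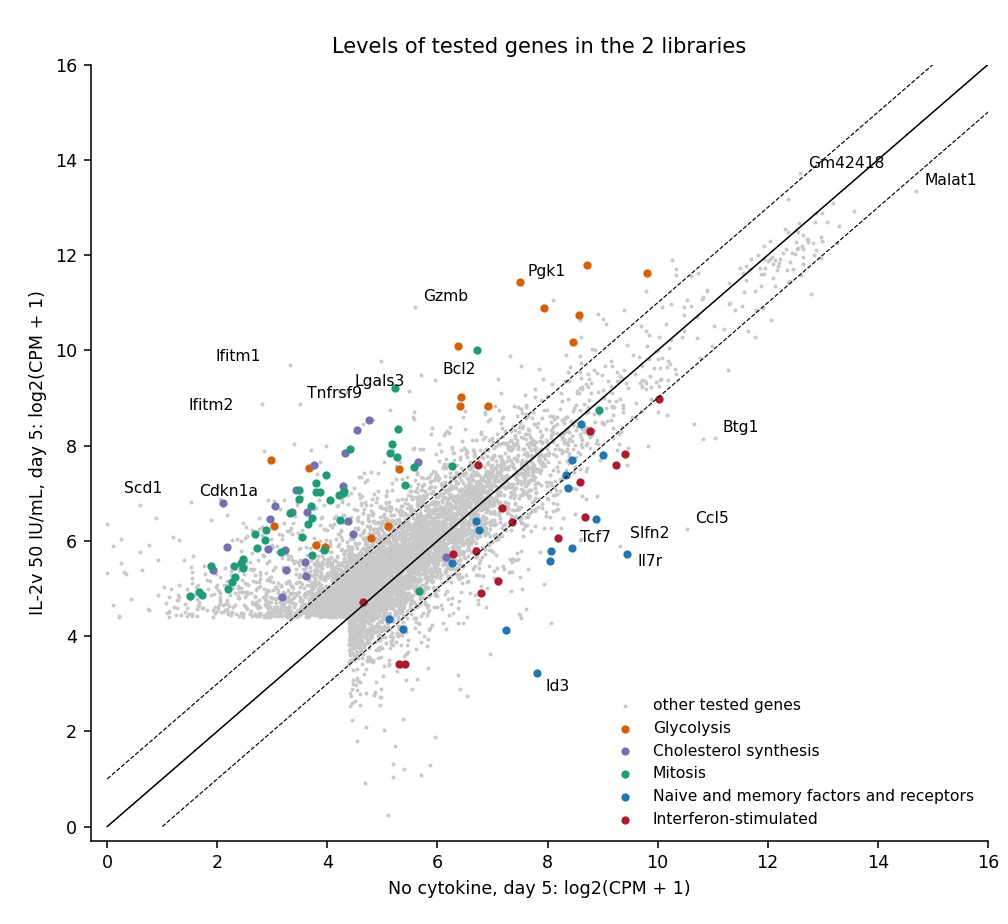
Level of each of the 6389 tested genes in the library without cytokine (x axis) and with IL-2v at 50 IU/mL (y axis), both on day 5 and as log2(CPM + 1). The solid line marks equal levels, the dashed lines 2-fold differences, and the colours members of 5 gene lists. Glycolysis, cholesterol synthesis and mitosis genes lie mostly above the upper dashed line, and naive and memory genes below the equal line.

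Ifitm1, a small interferon-inducible membrane protein, had the largest difference among genes with at least 100 CPM in one library: 832 CPM under IL-2v (95% interval 820 to 845) and 8.96 CPM without cytokine (7.84 to 10.2), a difference of 6.39. Its level was 0.65 CPM in naive cells, 147 CPM on day 5 with 5 IU/mL of IL-2v and 2669 CPM on day 10 with 50 IU/mL. Scd1, a desaturase that makes monounsaturated fatty acids, followed with 107 and 0.51 CPM (6.16). Tnfrsf9 (4-1BB), a costimulatory receptor of activated T cells, stood at 466 and 10.3 CPM (5.37), and granzyme B, Gzmb, at 1938 and 47.2 CPM (5.33). The cell cycle inhibitor Cdkn1a (p21) stood at 112 and 1.87 CPM (5.30), Gzmc at 139 and 3.04 CPM (5.11), and Slc7a5, the transporter of large neutral amino acids, at 235 and 6.23 CPM (5.03). The transcriptional repressor Zbtb32 (4.85) and the galectin Lgals3 (4.76) also belonged to the 12 genes with the largest positive differences, as did Olfr1369-ps1, annotated as a pseudogene (4.94). Ifitm2 (6.06), the third in order, and the histone gene Hist1h2ap (4.81) complete the 12, but both share much of their transcript ends with other genes, so their counts are uncertain.

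Among the lowest genes were factors and receptors of resting and memory T cells. Id3, an inhibitor of E proteins, stood at 8.32 CPM under IL-2v (7.14 to 9.63) and at 224 CPM without cytokine (219 to 230), a difference of −4.60. The chemokine gene Ccl5 stood at 75 and 1482 CPM (−4.29). Il7r, the alpha chain of the IL-7 receptor, stood at 51.5 and 700 CPM (−3.74). Slfn2, a gene of T cell quiescence, differed by −3.43, and Btg1, an antiproliferative factor, stood at 284 and 2106 CPM (−2.89). The surface receptors Cd7 (−3.14), Slamf6 (−3.13) and Cxcr3 (−3.05) and the genes Actn1 (−3.03) and Arl5c (−3.01) were also among the 12 lowest. The remaining 2 were the transcripts Gm26740 (−3.80) and Gm30054 (−3.33), and Gm30054 overlaps Fam149b on the other strand and cannot be told apart from it without strand.

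By amount rather than ratio, the largest gains were in Gm42418, which overlaps another gene model on the other strand over nearly its whole length, in the actins Actb (9234 and 5313 CPM) and Actg1, in the glycolytic genes Aldoa, Pgk1 and Gapdh, and in Ptma, Gzmb, Vim (2142 and 274 CPM) and Hsp90ab1. The largest loss was in Malat1, a nuclear long noncoding RNA, at 10430.1 CPM with IL-2v and 26631 CPM without cytokine. Others with large losses were Tmsb4x, Tpt1 and the ribosomal protein genes Rps24, Rps27, Rps15a, Rps29, Rpl18 and Rps28. Actg1, Ptma, Tpt1 and most ribosomal protein genes have near-identical copies in the genome, so their single values are uncertain.

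The genes nearest to the cytokine itself were described first. Il2ra stood at 430.1 CPM under IL-2v (421 to 439) and at 34.0 CPM without cytokine (31.8 to 36.4), a difference of 3.62, and Il2rb at 551 and 142 CPM (1.95). Il2rg, the common gamma chain, stood at 180 and 386 CPM (−1.1) and shares sequence with Gm20489, so its count is uncertain. Jak1 was at 277 and 474 CPM (−0.77, and −1.1 under TMM scaling), while Jak3 (0.56), Stat5a (0.16) and Stat5b (0.00) differed by less than 2-fold. Of the 7 receptor, JAK and STAT5 genes, 2 were thus at least 2-fold higher and 1 lower, beside 21.1% and 5.53% of all tested genes.

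The genes that STAT5 is known to induce were mostly higher with IL-2v. Of 10 such genes, among them feedback inhibitors of cytokine signalling, 8 were at least 2-fold higher and none lower, against 21.1% and 5.53% of all tested genes, with a median of 2.29 beside 0.30 over all tested genes. Cish, a feedback inhibitor, stood at 121 CPM under IL-2v (116 to 125) and at 10.7 CPM without cytokine (9.45 to 12), and Socs2 at 115 and 8.26 CPM (3.65). The survival factor Bcl2 stood at 663 and 60.8 CPM (3.42), and the kinases Pim1 at 421 and 89.5 CPM and Pim2 at 246 and 46.4 CPM. Myc, a transcription factor that promotes cell growth, stood at 158 and 55.1 CPM. Lta (2.35) and Osm (1.79) complete the 8. Socs1 (111 and 149 CPM) and Socs3 (12.6 and 24.2 CPM, −0.89, and −1.20 under TMM scaling) were not higher, and under TMM scaling 7 genes of the list were higher and 1 lower. Across libraries, Cish stood at 4.71 CPM in naive cells, 8.27 CPM without cytokine on day 3, and 73.3 CPM with 5 IU/mL of IL-2v on day 5. The day 5 libraries with other cytokines held 97.4 CPM with 50 IU/mL of IL-2 and 31.2 CPM with 50 IU/mL of IL-15, so every cytokine library named here lay above those without cytokine.

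The promoter of Cish is shown because it was the gene with the largest difference among those of the list whose window held a STAT motif, TTCNNNGAA. The window runs from 250 bases before to 50 bases after the start in RefSeq (GRCm38.p6, chr9:107296409-107296708, + strand), and the capitals mark both matches, TTCCTGGAA and TTCTTGGAA. GENCODE places the gene on chromosome 9 with a start further upstream.
Cish: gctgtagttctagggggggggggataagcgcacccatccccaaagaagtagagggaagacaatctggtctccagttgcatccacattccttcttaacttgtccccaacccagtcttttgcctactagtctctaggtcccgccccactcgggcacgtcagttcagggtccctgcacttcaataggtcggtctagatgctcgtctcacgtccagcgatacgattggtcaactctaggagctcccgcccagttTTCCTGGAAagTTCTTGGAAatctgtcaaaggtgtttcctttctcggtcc
The motif was searched on both strands, which read the same for this pattern. It was found in 3 of the 8 windows that RefSeq gives for 7 of the 10 genes, those of Cish, Lta and Socs3, or 37.5%, and in 8.30% of all 32851 windows of this length. Socs3, with a match, differed by −0.89. A match is a description of the letters and not of binding.

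**Figure D2:**
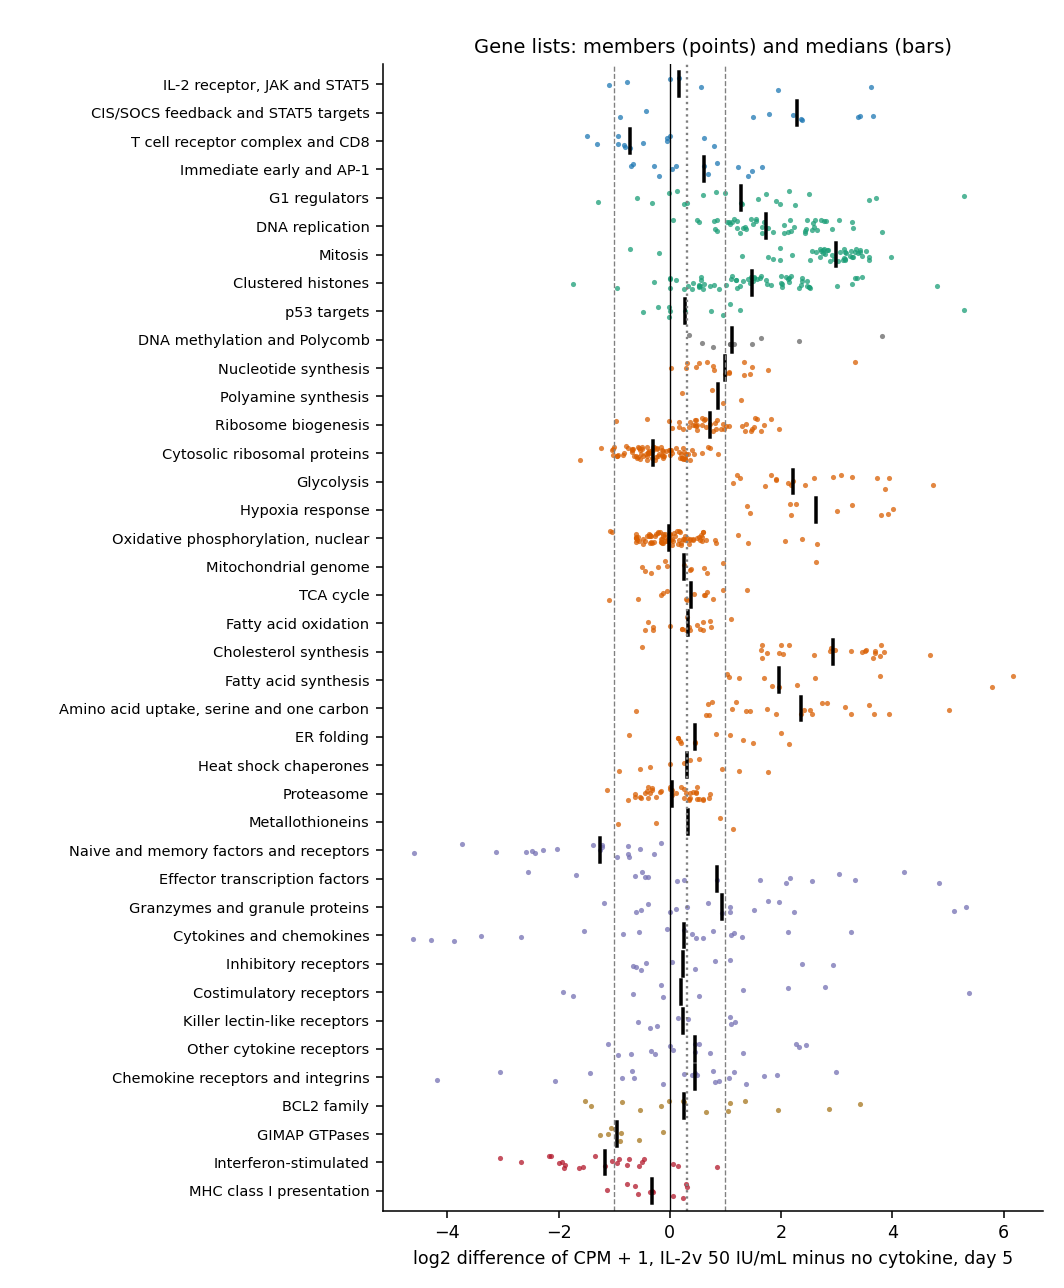
Difference in log2(CPM + 1) between IL-2v at 50 IU/mL and no cytokine on day 5 (x axis) for the members of 40 gene lists (y axis). Points are genes, coloured by the kind of list, black bars are list medians over all members in the tables, dashed lines mark 2-fold differences and the dotted line the median of 0.30 over all tested genes. Mitosis, cholesterol synthesis, hypoxia response and glycolysis lie to the right, and the naive and memory and interferon-stimulated lists to the left.

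Most genes of DNA replication and mitosis were higher with IL-2v. Of 46 mitosis genes, 44 were at least 2-fold higher and none lower, beside 21.1% and 5.53% of all tested genes, with a median of 2.99, and their summed level was 6543 CPM with IL-2v and 1319 CPM without cytokine. Mki67, a marker of cells in cycle, stood at 588 and 36.3 CPM, the kinesin Kif11 at 134 and 10.2 CPM and the spindle checkpoint kinase Bub1 at 43.3 and 2.69 CPM. The exceptions were Smc4 (426 and 486 CPM) and Pttg1, securin (30.1 and 49.9 CPM, −0.71, and −1.03 under TMM scaling). Of 50 DNA replication genes, 45 reached 20 CPM, and 38 of these were at least 2-fold higher and none lower. The median over the 50 was 1.73 and the summed levels were 3405 and 1019 CPM. Uhrf1, which passes DNA methylation on at replication, stood at 114 and 7.17 CPM, the polymerase subunit Pole at 37.8 and 3.74 CPM and the helicase loader Cdc6 at 28.3 and 1.99 CPM. Under TMM scaling 30 of the 44 replication genes that reached 20 CPM were higher, beside 13.2% of all tested genes. Mcm4, Mcm6 and Mcm7 were among those below 2-fold there.

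Regulators of entry into the cycle were less uniform. Of 22 such genes, 19 reached 20 CPM. At least 2-fold higher with IL-2v were 11 of these, and 1 was lower, beside 21.1% and 5.53% of all tested genes. The kinase Cdk6 stood at 370 and 27.3 CPM (3.71) and the inhibitor Cdkn1b (p27), a marker of quiescence, at 79.8 and 197 CPM (−1.30). Its relative Cdkn1a was the highest of the list and is also a p53 target. Of the 11 p53 targets, 7 reached 20 CPM and 2 of these, Cdkn1a and Ccng1 (98 and 40.2 CPM), were at least 2-fold higher, beside 21.1% of all tested genes. Mdm2 stood at 37.7 and 31.0 CPM and Bax at 134 and 136 CPM. Ccng1 was below 2-fold under TMM scaling. The cyclins Ccnd2 (655 and 550 CPM) and Ccnd3 (331 and 185 CPM) and the kinase Cdk4 (116 and 106 CPM) differed by less than 2-fold. Of 66 clustered histone genes, 27 reached 20 CPM. Among these, 22 were at least 2-fold higher and none lower, beside 21.1% and 5.53% of all tested genes. Most histone genes share sequence with each other.

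The promoter of Cdc6 is shown because it had the largest difference among the replication genes whose window held an E2F motif, TTTGGCGC or TTTCCCGC on either strand. E2F factors are known to switch on replication genes at the start of the cycle. The window lies at chr11:98907901-98908200, + strand, and the capitals mark the match, read on the other strand.
Cdc6: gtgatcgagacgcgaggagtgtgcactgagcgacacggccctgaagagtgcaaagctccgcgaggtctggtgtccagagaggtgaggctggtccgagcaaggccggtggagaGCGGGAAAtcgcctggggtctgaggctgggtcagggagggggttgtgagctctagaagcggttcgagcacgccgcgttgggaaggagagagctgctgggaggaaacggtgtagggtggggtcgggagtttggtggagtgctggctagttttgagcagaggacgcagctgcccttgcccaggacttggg
The motif was in 12 of the 46 windows that RefSeq gives for 40 of the 50 replication genes (26.1%), and in 1.57% of all windows. It was in 1 of 42 windows of the mitosis genes (2.38%), that of Ncapd2. Besides Cdc6 the replication genes with a match were Cdt1, Gins3, Mcm3, Mcm5, Mcm6, Mcm7, Pola1, Pold1, Pold3, Pole2 and Rfc3, and their differences ran from 0.86 for Pold3 to 3.29 for Cdc6.

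The share of cycling cells was counted as cells with a UMI of Mki67 or Top2a after each cell was thinned at random to 2000 UMIs. With IL-2v, 2868 of 4780 cells (60.0%, exact 95% interval 58.6 to 61.4) were cycling, and without cytokine 488 of 6003 (8.13%, 7.45 to 8.85). Cells with fewer than 2000 UMIs were left out, 299 and 109, and without thinning the shares were 66.7% and 13.8%. Without cytokine the share depended on the rule: it was 25.7% when 3 UMIs of the mitosis list were asked for, against 62.3% with IL-2v. By that rule 11.9% of naive cells were counted as well. The list holds Smc4, which stood at 426 CPM with IL-2v and 486 CPM without cytokine, and its part in these shares was not tested. In other libraries, thinned alike, the share was 1.97% in naive cells, 51.1% without cytokine on day 3, 78.7% with 50 IU/mL of IL-2v on day 3 and 17.4% on day 10. On day 5 it was 34.4% with 5 IU/mL of IL-2v, 46.9% with 50 IU/mL of IL-2 and 19.5% with 50 IU/mL of IL-15.

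Since the mix of cells differed, the comparison was repeated within cycling cells (3387 and 846 cells, before thinning) and within the other cells (1692 and 5266 cells). Within cycling cells 1236 of 6402 genes (19.3%) stood at least 2-fold above the library without cytokine and 312 (4.87%) below it, and within other cells 898 of 6051 (14.8%) and 314 (5.19%). The median depth of cycling cells was 4468 UMIs with IL-2v and 4533.5 without cytokine, that of other cells 3209 and 3666. The mitosis list, whose members Mki67 and Top2a defined the classes, had a median of 1.35 within cycling cells and 1.33 within the others. Within cycling cells all 46 members reached 20 CPM, and 34 were at least 2-fold higher and none lower. In the other cells 10 reached 20 CPM, and 5 were higher and 1 lower, so most values behind that median were of low genes. The glycolysis list had medians of 2.39 and 2.29, cholesterol synthesis 2.77 and 2.68, the naive and memory list −1.22 and −1.21 and the interferon-stimulated list −0.95 and −1.04. Other lists had smaller medians within a class than the 1.73, 1.48, 1.29 and 0.93 over all cells: DNA replication had 0.89 and 1.12, clustered histones 0.83 and 0.16, G1 regulators 1.04 and 0.73, and the granule genes 0.17 within cycling cells, but 1.45 within the others. These medians cover all members of a list, also those below 20 CPM. Within cycling cells 45 replication genes reached 20 CPM, and 21 of these were at least 2-fold higher. Of the granule genes, 10 reached 20 CPM in each class. Within cycling cells 5 of them were at least 2-fold higher, and within the others 6. Gzmb differed by 4.13 within cycling cells and by 5.93 within the others. In the other cells 7 histone genes reached 20 CPM, 2 of them higher and 2 lower.

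**Figure D3:**
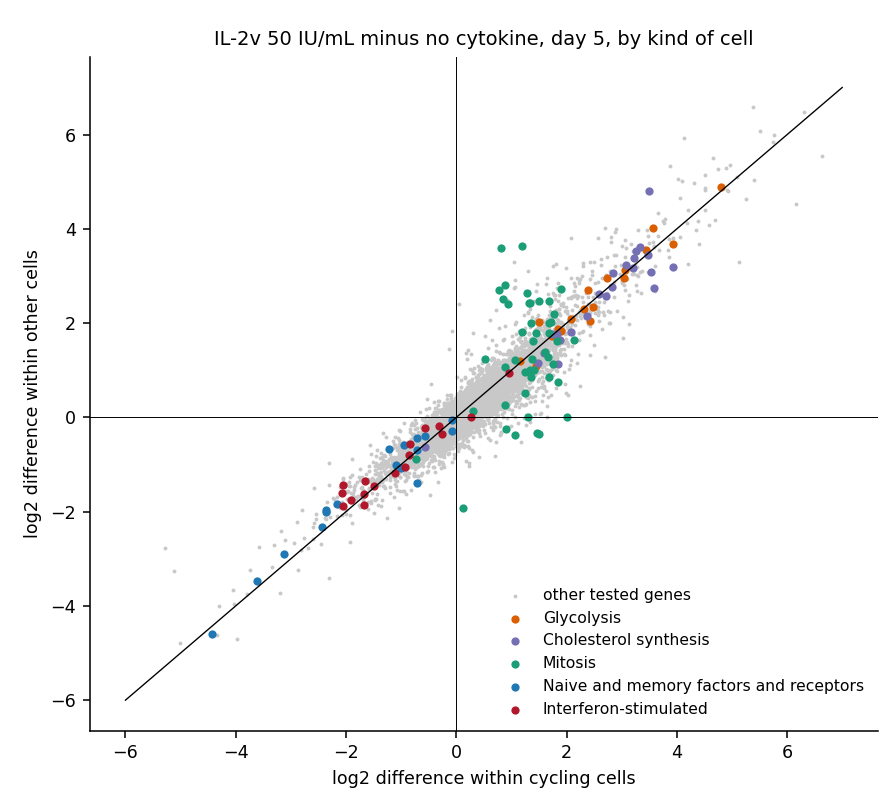
Difference in log2(CPM + 1) between IL-2v at 50 IU/mL and no cytokine on day 5, within cells with a UMI of Mki67 or Top2a (x axis) and within cells without one (y axis). Points are the 6389 tested genes, colours mark members of 5 lists, and the diagonal marks equal differences. Glycolysis and cholesterol synthesis genes lie near the diagonal at the upper right, naive and memory and interferon-stimulated genes mostly at the lower left, and mitosis genes scatter off it.

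Genes that take up and burn glucose were higher with IL-2v. Of 19 glycolysis genes, 18 reached 20 CPM and were at least 2-fold higher, beside 21.1% of all tested genes, with a median of 2.22 over the 19, and the summed level was 17687 CPM with IL-2v and 2995 CPM without cytokine. The glucose transporters Slc2a1 (59.4 and 12.8 CPM) and Slc2a3 (182 and 38.4 CPM) stand at the entry of the pathway. Hexokinase 2, Hk2, which traps glucose in the cell, stood at 185 CPM (179 to 191) and 11.8 CPM (10.5 to 13.2). Aldolase C, Aldoc, stood at 208 and 6.89 CPM (4.73), Tpi1 at 1096 and 81.6 CPM, and the lactate exporter Slc16a3 at 78.8 and 7.21 CPM. Aldoa, Pgk1, Gapdh, Eno1, Pkm and Gpi1 were higher by 1.72 to 3.94 but have near-identical copies in the genome. Under TMM scaling Hk1 and Pfkl were below 2-fold, which left 16.

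The 10 genes of the hypoxia response, which the factor HIF1 is known to induce, were all at least 2-fold higher, beside 21.1% of all tested genes, with a median of 2.63. Bnip3, a mitophagy receptor, stood at 254 and 14.8 CPM (4.02), the growth factor Vegfa at 42.4 and 1.87 CPM (3.92) and the oxidase Ero1l at 350.5 and 24.2 CPM (3.80). Hilpda (61.1 and 22.8 CPM, 1.38) and Ankrd37 (61.7 and 13.0 CPM, 2.16) were the members at least 2-fold higher on day 5 and at least 2-fold lower on day 3. Bnip3, Ankrd37 and Higd1a overlap other genes on the other strand over a part of their exons.

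By contrast with glycolysis, the 83 nuclear genes of oxidative phosphorylation had a median of −0.01. Of these, 79 reached 20 CPM, with 1 at least 2-fold higher, Ndufv3, and 2 lower, Uqcrh and Ndufa4. Below 20 CPM, Cox6b2 (2.65), Cox7a1 (2.37), Cox6a2 (2.06) and Cox4i2 (1.23) also differed by more than 2-fold. Of 14 genes of the TCA cycle, citrate synthase, Cs, was higher (120 and 45.2 CPM) and Idh2 lower (28.1 and 61.2 CPM), and of 18 genes of fatty acid oxidation 1, Etfa, was higher (1.1, and 0.78 under TMM scaling). Each of these counts of higher genes is a smaller share than the 21.1% of all tested genes.

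Most genes of sterol and fatty acid synthesis were higher with IL-2v. Of 24 genes of cholesterol synthesis and its control, 22 were at least 2-fold higher and none lower, beside 21.1% and 5.53% of all tested genes, with a median of 2.94 and summed levels of 2651 and 368 CPM. Hmgcs1, the enzyme that makes HMG-CoA, stood at 321 CPM (313 to 328) and 22.1 CPM (20.3 to 24.0). Insig1, which restrains the sterol sensor, stood at 106 and 7.32 CPM (3.68), and Cyp51, the lanosterol demethylase, at 192 and 12.5 CPM (3.84). The other 2 were Ebp, at 49.7 and 70.7 CPM, and Tm7sf2, which did not reach 20 CPM (8.64 and 1.87 CPM). All 11 genes of fatty acid synthesis were at least 2-fold higher: besides Scd1, Scd2 stood at 718 and 51.3 CPM and Fasn at 124 and 19.6 CPM, and Fads2 at 58.5 CPM against 0.078 CPM, or 2 UMIs. The 3 elongases Elovl1, Elovl5 and Elovl6, at 1.03 to 1.25, were below 2-fold under TMM scaling. In naive cells the summed cholesterol list stood at 451 CPM and without cytokine on day 3 at 1716 CPM.

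The promoter of Hmgcs1 is shown because its window was the one of the cholesterol list that held the sterol motif TCACNCCAC, searched on both strands. It lies at chr13:119690101-119690400, + strand, and the capitals mark the match.
Hmgcs1: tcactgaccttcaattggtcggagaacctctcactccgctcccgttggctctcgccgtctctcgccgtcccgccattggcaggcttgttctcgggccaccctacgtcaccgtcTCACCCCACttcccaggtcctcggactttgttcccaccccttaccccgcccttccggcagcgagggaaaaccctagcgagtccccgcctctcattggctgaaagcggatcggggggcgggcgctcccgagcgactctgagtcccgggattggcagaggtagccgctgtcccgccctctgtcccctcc
This was 1 of the 20 windows given for 17 of the 24 genes (5.00%), beside 1.24% of all windows.

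Most genes of amino acid uptake and the serine and one-carbon pathways were also higher. Of 23 genes, 19 reached 20 CPM, and 15 were at least 2-fold higher and none lower, beside 21.1% and 5.53% of all tested genes, with a median of 2.35. Under TMM scaling 12 were higher, beside 13.2%. Slc7a5 is described above, and its partner Slc3a2 stood at 145 and 66.3 CPM (1.12, and 0.79 under TMM scaling). Asns, asparagine synthetase, stood at 115 and 6.54 CPM, the serine enzyme Psat1 at 168 and 13.1 CPM and the mitochondrial folate enzyme Mthfd2 at 172 and 29.2 CPM. Atf4, the transcription factor of the amino acid response that is known to act on these genes, stood at 417 and 46.4 CPM (3.14), and its targets Trib3 at 87.7 and 16.4 CPM and Ddit3 at 112 and 32.5 CPM. Slc1a4 and Chac1 had no UMI without cytokine and did not reach 20 CPM with IL-2v.

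Genes that build ribosomes and those that encode their proteins differed. Of 43 genes of ribosome biogenesis, 38 reached 20 CPM and 13 were at least 2-fold higher, beside 21.1% of all tested genes, among them Ncl (nucleolin, 1497 and 534 CPM) and Nop2 (45.1 and 13.2 CPM), with a median of 0.72. Of 83 cytosolic ribosomal protein genes none was at least 2-fold higher and 6 were lower, near the 5.53% of all tested genes, with a median of −0.30 and summed levels of 277352 and 355047 CPM. Under TMM scaling 16 were lower, beside 11.4%. Within cycling cells 3 were lower and within the other cells 2, beside 4.87% and 5.19% of all genes tested there. Single ribosomal protein genes are uncertain because of their pseudogenes. Of 17 genes of nucleotide synthesis 8 were at least 2-fold higher, and 4 under TMM scaling, where 13.2% of all tested genes were. Of 39 proteasome genes none was higher and 1 lower.

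Many factors and receptors of naive and memory T cells were lower with IL-2v. Of 19 such genes, 17 reached 20 CPM, and 10 were at least 2-fold lower and none higher, beside 5.53% and 21.1% of all tested genes, with a median of −1.26. Their summed level was 1646 CPM with IL-2v, 4712 CPM without cytokine and 6461 CPM in naive cells. Tcf7 (TCF-1), a factor of stem-like T cells, stood at 57.0 CPM in the IL-2v library (53.8 to 60.3) and 348 CPM in the other (340.4 to 355), and at 183 CPM in 5 IU/mL of IL-2v on day 5. Klf2, which drives the homing receptors, stood at 86.9 and 471 CPM, its target S1pr1, the exit receptor of lymph nodes, at 46.5 and 265 CPM, and Ccr7, which guides cells to lymph nodes, at 54.6 and 267 CPM. Foxo1 (−0.29), Satb1 (−0.16) and Dapl1 (−0.54) differed by less than 2-fold under each scaling.

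The levels were also followed as shares of cells with a UMI in cells thinned to 2000 UMIs. Free RNA in the droplets adds UMIs to cells that do not make them, and no cell type that should lack these genes was present to measure it. Shares in the naive library, whose median depth was 3799 UMIs, are given beside them. Tcf7 had a UMI in 10.5% of cells with IL-2v (9.69 to 11.4), 48.5% without cytokine (47.3 to 49.8) and 58.0% of naive cells, and without thinning in 18.6% and 68.2%. Il7r had one in 9.12%, 68.5% and 46.1%, and Klf2 in 15.5%, 48.3% and 75.6%. Id3 was seen in 1.55% of cells with IL-2v, 30.6% without cytokine and 16.9% of naive cells, so its share without cytokine was above that in naive cells. Dapl1, high in naive cells at 51.3%, was seen in 11.1% and 12.4% of the cultured cells, with overlapping intervals.

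The shares of Tcf7 and Klf2 were also split by class of cell. Tcf7 was seen in 9.24% of cycling and 12.5% of other cells with IL-2v, and in 43.0% and 49.0% without cytokine. Klf2 was seen in 12.9% and 19.3% with IL-2v, and in 45.5% and 48.6% without cytokine. The highest share with IL-2v lay below the lowest without cytokine for both genes, with intervals that did not overlap. Id3 was seen in 1.57% and 1.52% with IL-2v, and Dapl1 in 10.6% and 11.9%, with overlapping intervals in each case.

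**Figure D4:**
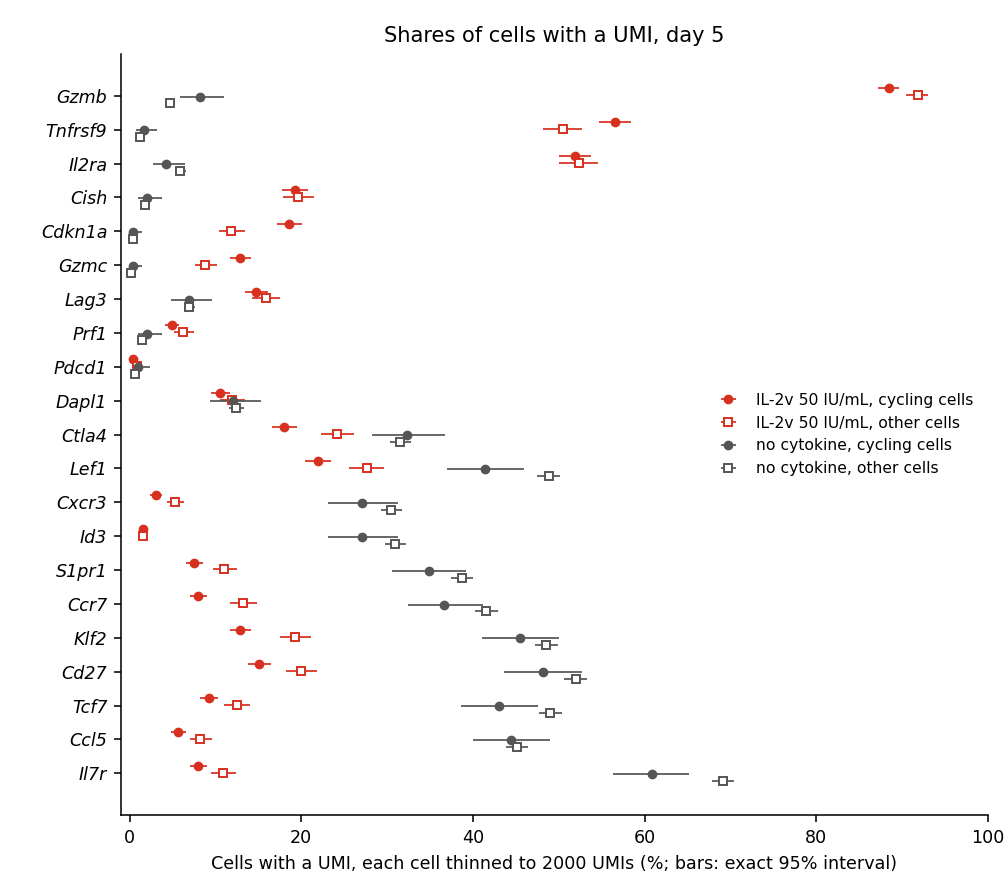
Share of cells with a UMI of each gene shown (y axis) among cells thinned to 2000 UMIs (x axis, percent), with exact 95% intervals that cover counting error. Red marks IL-2v at 50 IU/mL and grey no cytokine, both on day 5. Filled circles are cells with a UMI of Mki67 or Top2a, open squares the other cells. Gzmb, Tnfrsf9 and Il2ra are to the right with IL-2v, and Il7r, Ccl5 and Tcf7 to the right without cytokine, in both classes of cell.

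Genes of cytotoxic granules followed. Gzmb had a UMI in 89.8% of cells with IL-2v (88.9 to 90.7), 4.95% without cytokine (4.41 to 5.53) and 0.693% of naive cells. Its level was 643 CPM without cytokine on day 3, 526 CPM with 5 IU/mL of IL-2v on day 5, and 3143 CPM with 50 IU/mL on day 10. Gzmc had a UMI in 11.3% and 0.217% of cells, and in 0.112% of naive cells. The pore protein perforin, Prf1, stood at 33.1 and 9.0 CPM (1.77). It had a UMI in 5.46% of cells with IL-2v, 1.47% without cytokine and 7.27% of naive cells, so the share with IL-2v was below that in naive cells. The granzyme inhibitors Serpinb9 and Serpinb6b stood at 69.6 and 17.2 CPM and at 92.1 and 18.7 CPM. Gzma (41 and 21 CPM, 0.93), Nkg7 (657 and 609 CPM), Srgn (355 and 509 CPM) and Ctsw (178 and 274 CPM) differed by less than 2-fold. Of the 17 granule genes, 10 reached 20 CPM, 5 were at least 2-fold higher and none lower, beside 21.1% and 5.53% of all tested genes.

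Of 17 effector transcription factors, 14 reached 20 CPM, and 8 were at least 2-fold higher and 2 lower, beside 21.1% and 5.53% of all tested genes. Bhlhe40, a transcription factor of activated T cells, stood at 238 and 12 CPM (4.20), Nfil3 at 98.4 and 8.92 CPM (3.33), Prdm1 (Blimp-1), which drives terminal effector cells, at 42.9 and 4.32 CPM (3.04), and Irf8 at 127 and 20.6 CPM. Id2, which opposes E proteins in effector cells, stood at 429 and 138 CPM, the reverse of Id3. Eomes stood at 47.4 and 10.3 CPM, while Tbx21 (T-bet) differed by 0.84 and Tox by −0.44. Ikzf2 (Helios) at 30.8 and 184 CPM and Rora at 5.72 and 20.6 CPM were the 2 lower genes.

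Chemokines and surface receptors were found on both sides. Besides Ccl5, the chemokines Xcl1 (1.12 and 50.9 CPM) and Ccl4 (1.49 and 35.6 CPM) were lower, while Tnf was higher (30.5 and 6.23 CPM). The other genes of the cytokine and chemokine list were below 20 CPM or differed by less than 2-fold, Ifng at 0.511 and 3.39 CPM among them, while Lta and Osm, counted with the STAT5 targets, were higher. Ccl5 had a UMI in 6.69% of cells with IL-2v, 45.1% without cytokine and 9.98% of naive cells. For Cxcr3 these shares were 3.93%, 30.2% and 5.73%. Of the costimulatory receptors Tnfrsf9, Tnfrsf4 (OX40, 58.1 and 7.52 CPM) and Tnfrsf18 (GITR, 282 and 112 CPM) were higher, and Cd27 (94 and 359 CPM) and Cd226 (53.9 and 182 CPM) lower. Tnfrsf18 was just below 2-fold under TMM scaling. Of 10 inhibitory receptors 4 reached 20 CPM, and Lag3 (82.8 and 38.8 CPM, 1.07, and 0.75 under TMM scaling) and Entpd1 (CD39, 29.0 and 4.79 CPM) were at least 2-fold higher, beside 21.1% of all tested genes. Ctla4 was seen in 20.5% of cells with IL-2v, 31.6% without cytokine and 0.783% of naive cells. Pdcd1 was seen in 0.565% and 0.633%, with overlapping intervals and a share in naive cells of 0.514%.

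Among receptors for other signals, those for IL-12 and IL-18 were higher: Il12rb1 stood at 32 and 5.84 CPM, Il12rb2 at 123 and 23.8 CPM and Il18rap at 51.2 and 8.57 CPM. Il27ra was lower (37.1 and 81.4 CPM). Of the 15 other cytokine receptors listed, 12 reached 20 CPM. At least 2-fold higher were 4 of these and 1 was lower, beside 21.1% and 5.53% of all tested genes. With TMM scaling 3 were higher and 3 lower, beside 13.2% and 11.4%. The integrin chains Itgae (CD103, 1.30 and 40.9 CPM) and Itga4 (24.5 and 106 CPM) were lower, whereas the activation marker Cd44 (95 and 24.1 CPM) and Itgb3 (48.1 and 14.3 CPM) were higher. The chemokine receptor Cxcr4 (20.4 and 1.71 CPM) was higher, just above the limit of 20 CPM, and Cxcr3 lower. Of 21 chemokine receptors and integrins, 16 reached 20 CPM. At least 2-fold higher were 4 of these and 3 were lower, beside 21.1% and 5.53% of all tested genes. With TMM scaling 15 reached 20 CPM, and 2 were higher and 5 lower, beside 13.2% and 11.4%.

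In the BCL2 family the genes that protect cells did not go one way. Bcl2 and Bcl2l1 (BCL-XL, 47.6 and 5.65 CPM) were higher and Mcl1 (100.2 and 290.5 CPM) and Bcl2a1b (10.9 and 30.6 CPM) lower. Of the genes that promote death, Pmaip1 (20.3 and 4.56 CPM) and Bid (21.6 and 7.91 CPM) were higher, but neither reached 20 CPM under TMM scaling. Bcl2l11 (BIM, 81.5 and 38.8 CPM, 1.05) and Bak1 (65.7 and 30.3 CPM, 1.09) were below 2-fold under TMM scaling (0.73 and 0.77) and with totals without ribosomal protein and mitochondrial genes (0.88 and 0.92), and Bax and Bbc3 differed by less than 2-fold. Of the 15 members 11 reached 20 CPM, and 6 were at least 2-fold higher and 2 lower, beside 21.1% and 5.53% of all tested genes. Under TMM scaling 2 were higher, Bcl2 and Bcl2l1, and 2 lower, beside 13.2% and 11.4%.

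Part of a list of interferon-stimulated genes, which did not hold the Ifitm genes, was lower with IL-2v. Of its 23 members, 17 reached 20 CPM, and 10 were at least 2-fold lower and none higher, with a median of −1.17 and summed levels of 2149 CPM with IL-2v and 4829 CPM without cytokine, against 2111 CPM in naive cells and 2826 CPM without cytokine on day 3. The transcription factor Irf7 (9.62 and 41.5 CPM) and the GTPases Ifi47 (89.7 and 408 CPM), Iigp1 (65.9 and 292 CPM) and Irgm1 (34.6 and 135 CPM) were among the 10, beside 5.53% of all tested genes that were lower. Gbp7 stood at 191 and 105 CPM and Stat2 at 25.1 and 24.1 CPM. Of 11 MHC class I genes 1 was lower, Psmb10 (116 and 255 CPM), a share near that of all tested genes. Of the 8 GIMAP GTPases, a family abundant in lymphocytes, 3 were at least 2-fold lower and none higher. With TMM scaling 6 were lower, beside 11.4% of all genes tested there. Within cycling cells 3 were lower and within the other cells none, with medians of −0.94 and −0.71. The shares of all genes lower in these classes were 4.87% and 5.19%. Of 13 genes of the T cell receptor complex and CD8, Cd8b1 (417 and 1033 CPM) and Trbc2 were at least 2-fold lower, and 7 were under TMM scaling.

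The same lists were set beside other libraries. On day 5 the comparisons of 5 IU/mL of IL-2v, 50 IU/mL of IL-2 and 50 IU/mL of IL-15 share the library without cytokine with the present one, so their values are given side by side and not as independent results. The treatment labels of the libraries titled as 50 IU/mL of IL-2 and of IL-15 name interleukin-3 and interleukin-16, and the titles were followed. The median of the mitosis list was 2.99 with IL-2v at 50 IU/mL, 2.57 at 5 IU/mL, 2.50 with IL-2 and 1.88 with IL-15. The median of cholesterol synthesis was 2.94, 2.24, 1.90 and 2.10, and that of glycolysis 2.22, 1.87, 2.51 and 1.01. The naive and memory list had medians of −1.26, −0.49, −1.28 and −0.27, and the amino acid and one-carbon list 2.35, 0.59, 1.57 and 0.79. All tested genes had medians of 0.30, 0.08, 0.11 and 0.01. The share of tested genes at least 2-fold higher than without cytokine was 21.1% with IL-2v at 50 IU/mL, 9.75% at 5 IU/mL, 16.5% with IL-2 and 5.82% with IL-15, and the share at least 2-fold lower was 5.53%, 2.62%, 7.56% and 1.9%.

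The gap between 50 IU/mL of IL-2v and no cytokine on day 3 was below that on day 5 in some lists and above it in others. The medians on day 3 were 0.14 for mitosis, 0.19 for glycolysis, 0.63 for cholesterol synthesis and −0.21 for the hypoxia response, beside 0.21 over all tested genes, of which 7.85% were at least 2-fold higher and 1.73% lower. Ribosome biogenesis had a median of 1.43 on day 3 and 0.72 on day 5, and polyamine synthesis 1.39 and 0.86. From day 3 to day 5 the mitosis median differed by −2.77 without cytokine and by 0.08 with IL-2v, and the cholesterol median by −2.27 and 0.02. For the hypoxia response the steps were −1.29 and 1.51, and for ribosome biogenesis 0.17 and −0.46. The list of STAT5 targets differed between the libraries on both days, by 1.57 on day 3 and 2.29 on day 5. Day and library cannot be told apart, as each day had 1 library of each condition.

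**Figure D5:**
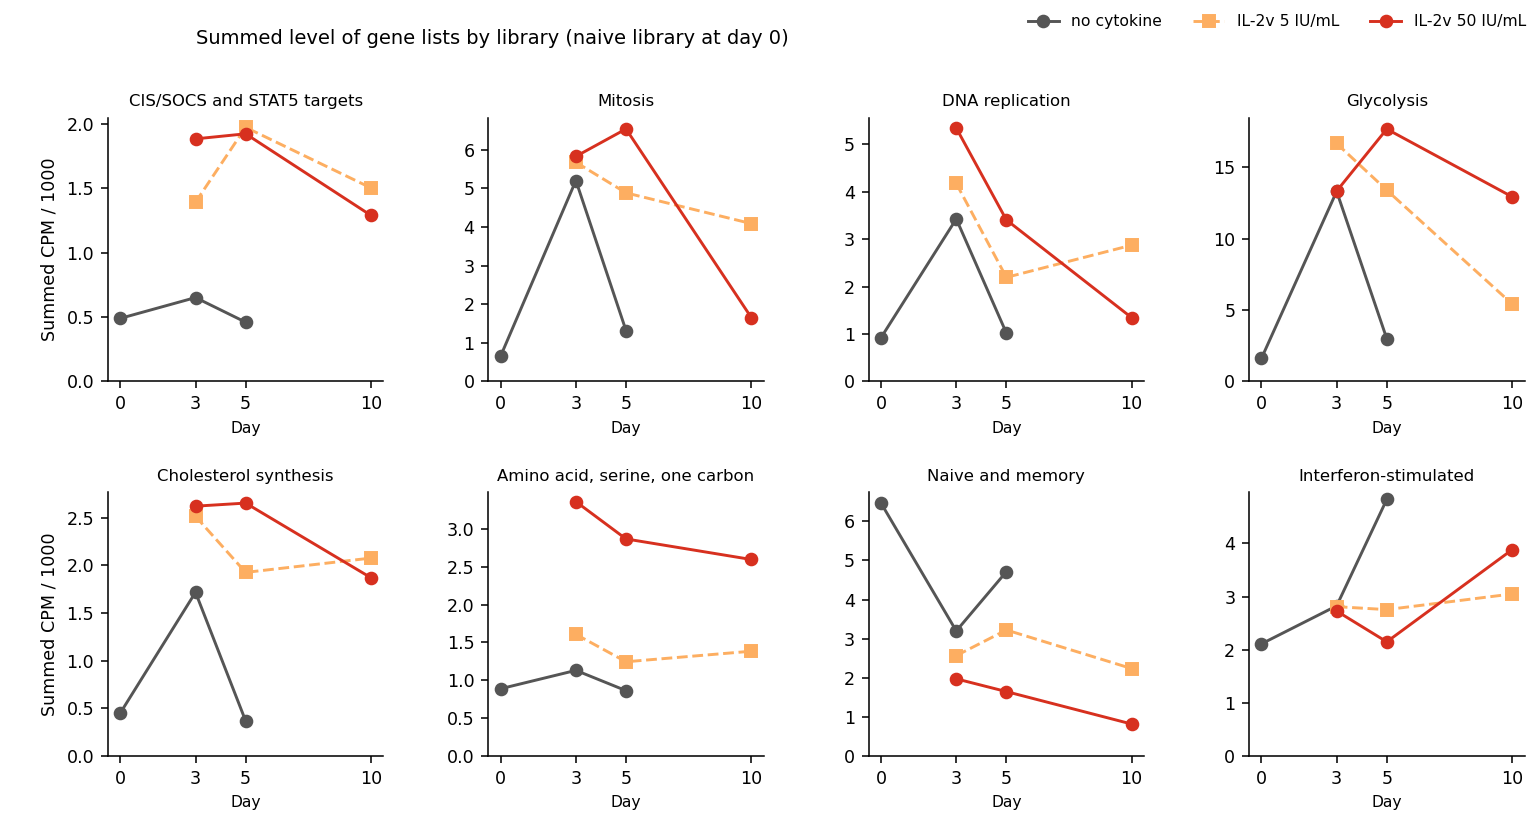
Summed CPM of 8 gene lists, divided by 1000 (y axis), by day of culture (x axis), with 1 library at each point. Grey circles are naive cells on day 0 and cells without cytokine on days 3 and 5, orange squares IL-2v at 5 IU/mL and red circles IL-2v at 50 IU/mL. On day 5 the red point lies above the grey one for 6 lists and below it for the naive and memory and the interferon-stimulated lists.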

How the data were processed

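Single-cell RNA was measured in 21 libraries, 1 per condition. The authors deposited, for each library, a table of UMI counts per gene symbol and cell, with whole, unnormalized values; Cell Ranger, Seurat 4.0.1 and Seurat 3.0.2 and the build mm10 are named in the submitters' processing notes, without their roles. The annotation, cell filters and doublet removal are not given in the sources used here. No cell was removed and no doublet caller was run.

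Counts were summed per library and scaled to CPM. Differences were taken on log2(CPM + 1), and genes with at least 20 CPM in either library were compared at a threshold of 2-fold. CPM values have exact Poisson 95% intervals and shares exact Clopper-Pearson 95% intervals. For shares, cells were thinned to 2000 UMIs. Alternatives were TMM library sizes, totals without ribosomal protein and mitochondrial genes, mean CPM of single cells, a pseudocount of 10 CPM, no filter, a filter on the other 19 libraries, and subsets of cells. The counting of differences was also run on counts simulated with changes larger than 2-fold in genes well above 20 CPM. The simulation held counting error alone. It did not cover changes near these thresholds or differences between cultures. No model was fitted, because cells are not replicates.

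Among genes that reached 100 CPM in one of the libraries, the 12 highest and 12 lowest differences were named, together with the 10 largest gains and 10 largest losses in CPM and any member of 40 gene lists. Some named items are not reported here, but counts and medians include them. The comparison, the lists and the genes were chosen with earlier results of these data known. A gene was called uncertain where at least 20% of the 50-base words in the last 1000 bases of its transcripts were shared with other genes in GENCODE (GRCm38), or where exons overlapped. Promoter windows came from RefSeq (GRCm38.p6). Python 3.11.15, numpy 2.4.6, scipy 1.17.1, pandas 2.3.3 and matplotlib 3.10.9 were used.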

Additional observations from a re-analysis of the deposited data

Results flagged for a closer look

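The difference between 50 IU/mL of IL-2v and no cytokine was at least 2-fold on both days, higher on day 5 and lower on day 3, in 2 genes of the hypoxia response. Hilpda, a lipid droplet protein, differed by 1.38 on day 5 (61.1 CPM with IL-2v and 22.8 CPM without cytokine) and by −1.18 on day 3 (12.4 and 29.4 CPM). Ankrd37 differed by 2.16 on day 5 (61.7 and 13.0 CPM) and by −2.02 on day 3 (5.46 and 25.3 CPM). With 1 library per condition and day, the difference between the days was not tested.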

How the results depend on the processing

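The number of genes at least 2-fold higher, 1350, was 832 with TMM library sizes, 2611 with no filter and 898 in cells that had no UMI of Mki67 or Top2a. The number at least 2-fold lower, 353, was 718 with TMM library sizes, 593 with totals without ribosomal protein and mitochondrial genes and 581 with no filter. The share of cycling cells with IL-2v was 62.3% by at least 3 UMIs of the mitosis list, 49.1% when thinned to 1000 UMIs and 66.7% with no thinning. Without cytokine it was 25.7%, 4.84% and 13.8%, and 6.54% without cells of more than 2 times the median UMIs. In each of these settings the share with IL-2v was the higher. The medians of the lists for the IL-2 receptor, JAK and STAT5, the mitochondrial genome, the proteasome, cytokines and chemokines, inhibitory receptors, costimulatory receptors and the BCL2 family changed sign under TMM or the totals without ribosomal protein and mitochondrial genes. No paired analysis was possible because each condition had 1 library. With 1 library per condition, differences between cultures, captures and sequencing runs cannot be told apart from those between treatments. The intervals cover counting error only.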

Other observations

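Detection of some genes was also split by Gzmb, in cells thinned to 2000 UMIs. With IL-2v, Tcf7 had a UMI in 10.4% of the 4293 cells with a Gzmb UMI (exact 95% interval 9.51 to 11.4) and in 11.7% of the 487 cells without one (8.99 to 14.9), intervals that overlap. Without cytokine the shares were 25.3% of 297 cells (20.4 to 30.6) and 49.7% of 5706 cells (48.4 to 51.0), intervals that do not. Il7r showed 9.27% and 7.80% with IL-2v, with overlapping intervals, and 60.9% and 68.9% without cytokine, with intervals that did not overlap. Gzmc was seen in 11.8% (10.8 to 12.8) and 6.57% (4.54 to 9.15) with IL-2v, intervals that did not overlap. Without cytokine it was seen in 6 of the 297 cells and 7 of the 5706 cells (2.02% and 0.123%), again without overlap of the intervals. Il2ra was seen in 52.4% and 49.3% with IL-2v and in 9.09% and 5.63% without cytokine, with overlapping intervals within each library. Free RNA from the abundant Gzmb transcript was not measured, and its part in these shares was not tested.

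Outside the lists, 4 further genes were at least 2-fold higher with IL-2v on day 5 and at least 2-fold lower on day 3, and they were chosen after their values were seen. Gsn, the actin-severing protein gelsolin, stood at 151 and 24.6 CPM on day 5 and 58.6 and 118 CPM on day 3. Dap stood at 239 and 109 CPM on day 5 and 96.0 and 243 CPM on day 3. The others were Dnaaf5 (1.71 and −1.30) and the transcript Gm16754 (3.15 and −1.29), given as log2 differences on days 5 and 3.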
